A study of Homo sapiens with 4 samples.

Results

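Long exonic circles were taken as the circRNAs classed as exonic in the deposited table, carrying a circBase identifier, listed at over 1000 nt and holding at least 1 junction read in libraries A1, A2, B1 or B2. There were 284 of them among 2223 exonic circBase circles with a read (12.8%), beside 1939 shorter ones of 1000 nt or less, and 9405 circRNAs of any class had a read. Exosomes of pancreatic cancer cells, sequenced as rRNA-depleted total RNA, were compared between 2 control libraries without irradiation (group A, A1 and A2) and 2 libraries of cells given 10 Gy of X-rays (group B, B1 and B2). Every sample carries the names of the pancreatic cancer lines BxPC-3, MIA PaCa-2, PANC-1 and SW1990, so the line behind a library was not resolved here. Values of B2 come from the column of that name, in which the number of circRNAs differs from the one the study lists for B2, so whether it is the study's second irradiated library is not settled. Nothing states that the libraries of a group are separate cultures, and a p-value below then covers the spread between these samples, which may be technical. The question put to the data was what kind of circle the long ones are, which host genes they come from, and how many of their reads each library holds.

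A circRNA forms when the splice donor at the end of an exon is joined backwards to the acceptor at the start of the same exon or of an exon before it, and only reads that cross this back-splice junction count for it. Such rings have no free ends and resist exonucleases, and they are found in exosomes and other vesicles outside cells. A circle can reach a great length by holding 1 large exon, as the circle of HIPK3 does, or by holding a row of exons of usual size.

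The junctions of 12 long circles that the results turn on are printed to show what a read has to cross to be counted. Each line gives the last 15 bases of the circle in lower case and its first 15 bases in capitals, along the strand of the host gene (GRCh37).
HIPK3 hsa_circ_0000284: atctcggtactacagGTATGGCCTCACAAG
HIPK2 hsa_circ_0001756: gtccagatattacagGTATGGCCTCACATG
SLC8A1 hsa_circ_0000994: gaatgatgaaattgtTAGGTTGTGACAGTT
SLC8A1 hsa_circ_0005232: gaatgatgaaattgtGTTGTGACAGTTGGA
ZBTB44 hsa_circ_0002484: agtcttcctctatagGACATTTCTGATTTA
MGA hsa_circ_0000591: agagatttctgaatgGATGGGAAGGCCATT
NFATC3 hsa_circ_0000711: catcctgttgtgaagATCTTGAGCCAGATG
SPECC1 hsa_circ_0000745: agtctgctggccaagGGGCCTTTACAACAA
FAT1 hsa_circ_0001461: taggtgaagagacagATTCCCGACAGTTAA
RMST hsa_circ_0099634: gaatggcttcatgagATTCTCAGGATGATG
KLHL24 hsa_circ_0001368: acattcagccgtcagGTGTGGAAATTAAAA
KLHL24 hsa_circ_0001367: gactaggccacgcagGTGTGGAAATTAAAA
HIPK3 and HIPK2 encode closely related nuclear kinases, and their junctions were alike at 24 of 30 bases. The KLHL24 circles share their first bases and differ in the exon they end with. All 284 long circles had AG before their first base and GT after their last base in the genome, as did all 1939 shorter ones. This is the motif of the splice acceptor and donor. The circles were chosen as exonic and listed in circBase, so the motif was likely in advance and is no evidence for a junction.

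Long circles were read in group B and hardly in group A. The same held for shorter exonic circBase circles, with 2 reads in A1, 4 in A2, 7905 in B1 and 1545 in B2. The pattern is thus not particular to long circles. A1 held 1 junction read of a long circle, A2 held 0, B1 held 1190 and B2 held 275. Both irradiated libraries thus lay above both control libraries, and B1 lay above B2. The reads of long circles fell on 239 circles in B1, on 80 in B2 and on 1 in A1, the circle of FAT1. Over all circRNAs there were 6544 junction reads in A1, 8094 in A2, 15150 in B1 and 5756 in B2, so depth is low for a single circle. The share of long circles in all junction reads was 0.0153% in A1 (95% Wilson interval 0.00270 to 0.0865), 7.85% in B1 (7.44 to 8.29) and 4.78% in B2 (4.26 to 5.36). In A2 it was 0, and a count of 0 allows up to 0.0371% there. Group B averaged 6.32% ± 2.18 (SD, n = 2) and group A 0.00764% ± 0.0108 (SD, n = 2), a difference of 6.31 percentage points. An exact two-sided permutation test gave p = 0.333, the smallest that 2 against 2 libraries allow. Intervals cover counting error only, and in bulk RNA fewer vesicles or cells of a kind cannot be told apart from less RNA in each.

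**Figure D1:**
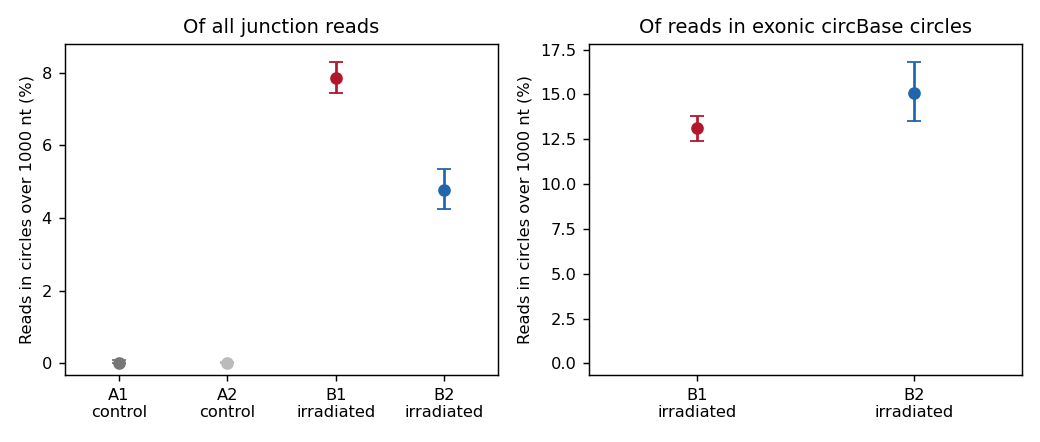
Percent of junction reads in circles over 1000 nt, with 95% Wilson intervals, out of all junction reads (left, 4 libraries) and out of reads in exonic circBase circles (right, the 2 irradiated libraries). B1 and B2 lie at 7.85% and 4.78% on the left, above A1 and A2 near 0, and at 13.1% and 15.1% on the right.

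Within the exonic circBase circles, the share of long ones was similar in B1 and B2. Long circles held 13.1% (12.4 to 13.8) of the reads of exonic circBase circles in B1 and 15.1% (13.5 to 16.8) in B2. Counted as circles they were 12.5% (11.1 to 14.1) in B1 and 13.6% (11.1 to 16.6) in B2, and these intervals overlap. A1 and A2 held only 2 and 4 reads of shorter exonic circBase circles, so neither group A library can give such a share with any precision. B1 held 2.63 times the junction reads of B2 over all circRNAs, 4.33 times over long circles and 5.12 times over shorter ones. The median long circle seen had 3 reads in B1 and 3 in B2, against 4 and 3 for shorter circles.

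Most long circles rested on a few reads. Over the 4 libraries, 12 had 1 read, 71 had 2, 98 had 3 or 4, 83 had 5 to 9 and 20 had 10 or more. The 20 with the most reads held 465 of the 1466 reads of long circles (31.7%). Only 35 of 284 (12.3%, 9.0 to 16.7) had reads in both B1 and B2, 204 were read in B1 and not in B2, and 45 in B2 and not in B1. Of the shorter circles seen in B1 or B2, 238 of 1938 (12.3%, 10.9 to 13.8) were in both, so long and shorter circles did not differ here beyond their intervals. Of the 35, 20 had more reads in B1, 12 had more in B2 and 3 had equal numbers.

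Large single exons led the list of long circles by reads. The circle of HIPK3 exon 2 (hsa_circ_0000284, chr11:33307959-33309057, 1099 nt) had 0 reads in A1, 0 in A2, 109 in B1 and 25 in B2. It made up 9.16% of the long-circle reads in B1 and 9.09% in B2, nearly the same share in both. Per junction read it was at least 31.3-fold higher in group B than in group A, where the absence of reads was set to a floor of 3 counts over the group. The circle of HIPK2 exon 2 (hsa_circ_0001756, chr7:139415731-139416814, 1084 nt), from the paralog that phosphorylates p53, had no control read, 1 read in B1 and 8 in B2. Its order was thus opposite to that of HIPK3, with more reads in the library of lower depth.

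SLC8A1, the plasma membrane sodium-calcium exchanger, gave a pair of circles of exon 2 that end at the same base and start 3 nt apart. hsa_circ_0000994 (chr2:40655613-40657444, 1832 nt) had 27 reads in B1 and 9 in B2, and hsa_circ_0005232 (chr2:40655613-40657441, 1829 nt) had 18 reads in B1 and 0 in B2. Neither had a read in A1 or A2. The stretch around both acceptors is printed with the AG of each in capitals, along the minus strand at chr2:40657430-40657459.
SLC8A1 acceptors: tcttatttttaccAGtAGgttgtgacagtt
The first AG precedes the longer circle and the second AG the shorter one.

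The other circles of 1 exon with 10 or more reads came from 7 genes. ZBTB44, a zinc finger protein with a BTB domain, had 29 reads in B1 and 2 in B2 from exon 2 (1074 nt). MGA, a partner of MAX in transcriptional repression, had 28 reads in B1 and 0 in B2 from exon 2 (1131 nt). KANSL1, a scaffold of the NSL histone acetyltransferase complex, had 15 reads in B1 and 0 in B2 from exon 2 (1378 nt). These genes were read mostly or wholly in B1. SPECC1 exon 4 (1580 nt) had 2 reads in B1 and 11 in B2, and ZBTB20 exon 11 (1605 nt), from a zinc finger repressor of the same family as ZBTB44, had 6 reads in each. The giant cadherins FAT1 and FAT3 both gave exon 2, of 3283 nt and 3309 nt. FAT1 had 1 read in A1, 0 in A2, 9 in B1 and 3 in B2, the only long circle with a control read, and FAT3 had 11 reads in B1 and 0 in B2. Per junction read FAT1 was 8.40-fold higher in group B, with a counting interval of 1.24 to 359.

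Circles of several exons also stood among those with the most reads. RMST, a long noncoding RNA known from neural development, gave exons 6 to 12 (hsa_circ_0099634, chr12:97886239-97954825, 1188 nt) with 37 reads in B1 and 0 in B2. SPATA7, a protein of the photoreceptor cilium, gave exons 5 to 12 (1043 nt) with 18 reads in B1 and 0 in B2, and CEP192, a centrosome scaffold, gave exons 2 to 11 (1538 nt) with 10 and 3. NFATC3, a calcineurin-activated transcription factor, gave exons 2 and 3 (1298 nt, 19 and 1 reads), and SHOC2, a scaffold of RAS signalling, gave exons 2 and 3 (1075 nt, 16 and 0). In both of these the larger exon made up most of the circle, 87.4% in NFATC3 and 87.2% in SHOC2. The death receptor TNFRSF21 had 8 and 2 reads from exons 2 and 3, BARD1, the partner of BRCA1, had 10 and 0 from exons 4 to 6, and REV1, a polymerase of translesion synthesis, had 10 and 0 from exons 2 to 6. The remaining circles of the 20 are one of KLHL24, with 10 and 0 reads, and one of a locus that the table names only as G073721, with 8 and 2. None of these circles had a read in A1 or A2.

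**Figure D2:**
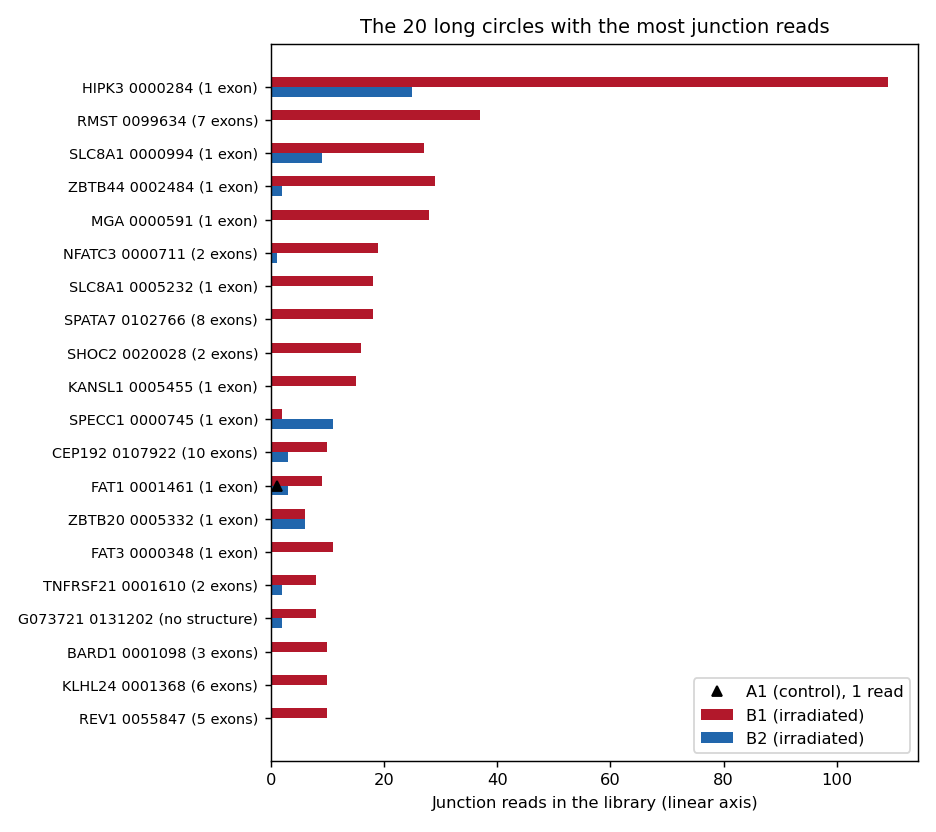
Junction reads of the 20 long circles with the most reads, as bars on a linear axis for B1 and B2, with host, circBase number and exons on the left. HIPK3 leads with 109 and 25 reads, 10 of the 20 have no bar for B2, and the triangle marks the 1 control read, in A1 at FAT1.

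In edgeR's quasi-likelihood test of group B against group A, the 1957 circRNAs that reach 5 reads in total were tested, 103 long circles among them. Of these 103, 102 had no control read and so passed through group B alone. At a fold change over 2 and unadjusted p under 0.05, 7 of the 103 long circles were higher and 0 lower. Of 713 shorter exonic circBase circles tested, 45 were higher and 0 lower. Of all 1957 tested, 69 (3.53%) were called higher and 4 lower. The long and the shorter circles were not tested against each other. The 7 are the circles of HIPK3, SLC8A1 (hsa_circ_0000994), RMST, ZBTB44, MGA, SPECC1 and NFATC3. The median log2 fold change was 5.22 over the long circles tested, 5.41 over 713 shorter ones and 5.0 over all tested. Most circRNAs tested were thus fitted as higher. The filter kept 2082 reads of A1, 2661 of A2, 9066 of B1 and 2078 of B2. The TMM factors, 2.3 and 2.12 in group A against 0.325 and 0.631 in group B, move each fold further upward. These medians depend on the filter and the scaling, and do not measure a rise of circRNAs. Over all tested, 0.102% had an adjusted p under 0.05 in the higher direction, and of the long circles 1, HIPK3 (adjusted p = 6.9e-05, edgeR). The next was SLC8A1 with an adjusted p of 0.305 (edgeR), and the other 5 had 0.549. The fit takes its spread mostly from all circRNAs together, and RMST and MGA were called with reads in B1 alone.

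These calls depended on the libraries and on the scaling. Without A1 the count at unadjusted p was 2 and without A2 it was 1, against 8 without B1 and 27 without B2 (edgeR). Each such fit leaves 1 library in a group, which is assumed to vary like the 2 of the other group. The share called over all circRNAs was not taken for these fits, so their counts cannot be set against other circRNAs. At adjusted p 0 were left when either control library was dropped, against 8 when B1 was dropped and 15 when B2 was. The call of HIPK3 was lost with RLE size factors (adjusted p = 0.453, edgeR), by the likelihood ratio test (0.192), in DESeq2 (0.464) and with a replicate block (0.695). It held without scaling factors (adjusted p = 0.00307, edgeR), with mapped reads as library sizes (2.3e-06), without a filter (2.7e-23) and with at least 10 reads (0.0220). HIPK3 had no read in A1 or A2, so its fitted fold depends on how each fit treats a group without reads and on the scaling. It is thus not a measured size, and the floor of counts used above gives at least 31.3-fold per junction read. The fitted log2 fold change of HIPK3 was 9.69 in the reported fit. It was 10.49, 9.69, 8.41 and 9.62 in the fits that lost the call, in that order. In those that held it the values were 8.58, 9.03, 9.46 and 9.92. Without A1, A2, B1 or B2 the fold was 9.72, 9.16, 8.68 and 10.34.

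Exon structure was read from GENCODE transcripts lifted to GRCh37, taking the transcript whose exons between both ends came closest to the listed length. Of 284 long circles, 271 ended at annotated exon ends of 1 transcript on both sides, and for 263 of them the exons summed to the listed length. The 271 held a median of 7 exons and at most 19, with 37 made of 1 exon, 39 of 2 or 3, 132 of 4 to 9 and 63 of 10 or more. Shorter circles had a median of 3 exons. Single exons made up 13.7% (10.1 to 18.3) of long circles and 5.22% (4.31 to 6.30) of shorter ones. The share of long circles was 20.8% without B1 and 22.3% among circles over 1500 nt. Exon number and exon size are tied to length, by which the circles were chosen, and are given as a description.

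**Figure D3:**
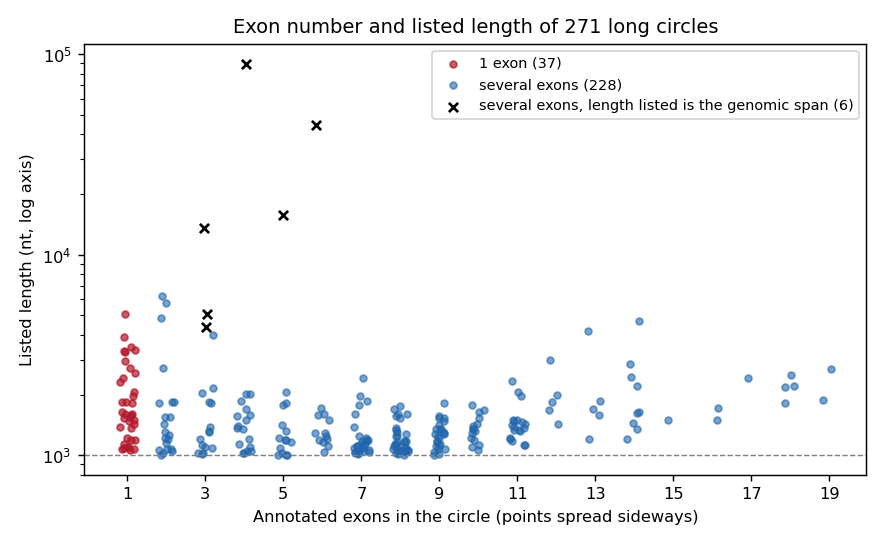
Listed length (nt, log axis) against the number of annotated exons for 271 long circles, spread sideways within each number. Red points are 37 circles of 1 exon, blue points 228 of several exons, and crosses 6 circles whose listed length is the genomic span with introns. The dashed line marks 1000 nt.

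Single-exon circles were few but took a large part of the reads. The 37 held 28.0% of the reads of long circles, and 20.7% when HIPK3 is left out. They made up 10 of the 20 circles with the most reads and had a mean of 11.1 reads, against 4.29 for circles of several exons, while the medians were 4 and 3. Of the 37, 11 (29.7%, 17.5 to 45.8) were read in both B1 and B2, against 22 of 234 with several exons (9.40%, 6.29 to 13.8). Among circles with 3 to 9 reads, chosen afterwards to bring read numbers closer, the shares were 5 of 18 (27.8%, 12.5 to 50.9) and 19 of 156 (12.2%, 7.94 to 18.2), whose intervals overlap. The share seen in both was 20.5% (10.8 to 35.5) at 2 or 3 exons, 8.33% (4.72 to 14.3) at 4 to 9 and 4.76% (1.63 to 13.1) at 10 or more, beside a mean of 5.08, 4.39 and 3.59 reads per circle.

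The single exons ranged from 1064 to 5042 nt. AKAP12, an anchor of protein kinase A, had the largest (exon 4, 5042 nt) with 1 read in B1. ARHGAP5, a GTPase-activating protein, followed with exon 2 (3885 nt, 3 reads in B1), then TET2, which oxidises 5-methylcytosine in DNA, with exon 3 (3455 nt, 6 reads in B1 and 2 in B2). MLH3, of DNA mismatch repair, had exon 2 (3343 nt, 1 and 2 reads), the kinase LMTK2 had exon 11 (2959 nt, 2 and 0) and the splicing-related SCAF11 had exon 11 (2718 nt, 7 and 0). None of these had a read in A1 or A2. Of these 6, TET2 and MLH3 were read in both irradiated libraries.

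Many long circles lie at the start of their gene. The circle started at exon 2 in 18 of 37 single-exon circles (48.6%, 33.4 to 64.1) and in 85 of 234 long circles with several exons (36.3%, 30.4 to 42.7). Shorter circles started there in 28.4% (26.4 to 30.4) of cases, those of 1 exon in 44.6% and those of several exons in 27.5%, so the single-exon circles of both classes were close. The start codon lay inside 81 of 271 long circles (29.9%, 24.8 to 35.6) and 11.7% (10.4 to 13.2) of shorter ones. Long circles were made wholly of coding sequence in 175 of 271 cases (64.6%), and shorter ones in 84.1% of cases. A longer circle covers more of its transcript, so both measures are tied to length and are given as a description. HIPK3, SLC8A1, ZBTB44, MGA, KANSL1, FAT1 and FAT3 all hold their start codon in exon 2, whereas the exons of SPECC1 and ZBTB20 are wholly coding and start downstream of it.

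**Figure D4:**
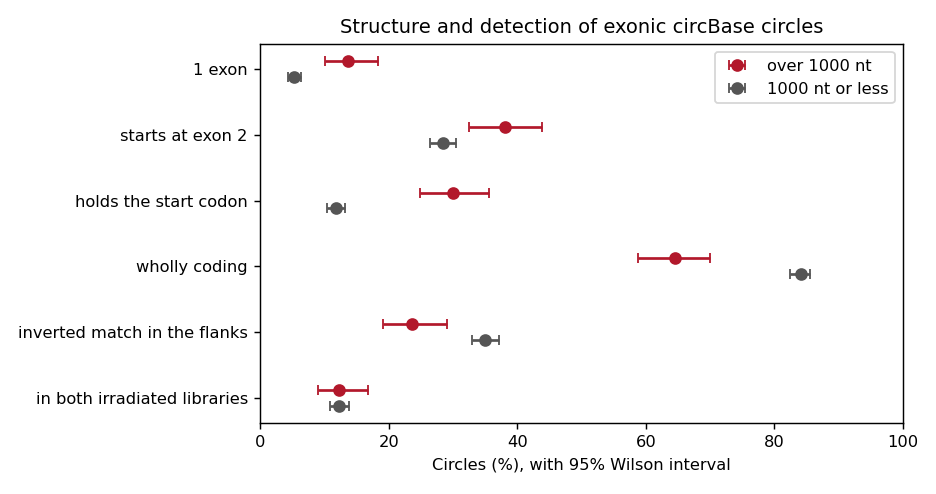
Percent of circles over 1000 nt (red) and of 1000 nt or less (grey) with the feature named on the left, with 95% Wilson intervals. Long circles lie higher for 1 exon, a start at exon 2 and a start codon, and lower for wholly coding sequence and for an inverted match in the flanks. They lie level for reads in both irradiated libraries (12.3% in each). Exon number, start codon and wholly coding sequence are tied to length, by which the circles were chosen.

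Introns beside long circles of few exons were longer than those beside shorter circles. Over all, the median intron before the circle measured 10495 nt for long circles and 8031 nt for shorter ones, and the median intron after it 9042 and 7014 nt. For single-exon long circles these were 26493 and 20959 nt, and for those of 2 or 3 exons 18536 and 14649 nt. Long circles of 4 to 9 exons had medians of 7956 and 7468 nt and those of 10 or more exons 8290 and 6604 nt, close to the shorter circles, and single-exon shorter circles had 14976 and 13538 nt. Inverted repeats in flanking introns, often Alu elements in human genes, are known to bring the ends of a circle together. A match in inverted orientation, of at least 100 nt and 70% identity between the 1000 nt on either side, was found for 64 of 271 long circles (23.6%, 19.0 to 29.0) and for 675 of 1930 shorter ones (35.0%, 32.9 to 37.1). HIPK3 had one, of 276 nt, and it was the only 1 of the 19 circles with exon structure among the 20 with the most reads. GC content was nearly level, with a median of 43.1% in long circles and 44% in shorter ones.

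Among the 234 long circles of several exons, 67 (28.6%) owed over 50% of their length to 1 exon and 123 had every exon under 300 nt. The circle of VPS50, a subunit of a vesicle tether, held 19 exons (exons 3 to 21, 1875 nt) with a largest exon of 177 nt, and had 8 reads in B1 and 0 in B2. The endocytic scaffold ITSN2 also held 19 (2700 nt, 0 and 2 reads). The 4 circles of 18 exons came from SEC31A, of the COPII coat (2513 nt, 0 and 3 reads), from EZH1, a histone H3 methyltransferase (2200 nt, 2 and 0), from PICALM, of clathrin assembly (1814 nt, 2 and 0), and from PCNX1 (2223 nt, 2 and 0). Each of these 6 was read in 1 library alone, and none had a control read.

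The longest listed lengths were genomic distances. For 16 of the 284 the listed length was the distance between both ends in the genome although no single annotated exon fills it, and all 10 circles listed at over 6500 nt were among them. For 6 of the 16 a transcript gave the exons, which summed to 228 to 890 nt, below the threshold of 1000 nt, and for the other 10 the spliced length is unknown here. The circle listed at 89844 nt (chrX:128166327-128256170, host named G089975, 8 reads in B1) held 4 exons of 423 nt, that of CFAP54 44372 listed against 890 nt in 6 exons, that of PRUNE2 15721 against 595 nt in 5 and that of PDE10A, a phosphodiesterase of cyclic nucleotides, 13603 against 480 nt in 3. CFAP54 and PDE10A had 2 reads each in B1, and PRUNE2 had 7. The other 4 of the 8 longest listings, of 35308, 32006, 20309 and 17367 nt, belong to loci without a gene symbol in the table and had 3 to 6 reads. The 16 held 56 reads in B1 and 9 in B2, and 265 circles had exons that sum to over 1000 nt. Of all 284, 170 were listed at up to 1500 nt and 62 at over 1500 to 2000 nt, with a median of 1354 nt.

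The circles nearest the threshold looked alike on both sides. Just over it lay TPST2 (1002 nt, 5 reads in B1) and AKAP10 (1003 nt, 2 reads in B1), and just under it PTPN9 (999 nt, 1 read in B2), the septin gene listed as SEPT10 (998 nt, 3 reads in B1) and ANKRD12 (994 nt, 5 reads in B1 and 1 in B2). None of these had a control read.

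The 284 circles came from 253 listed hosts, of which 27 gave more than 1 long circle, and in 19 of these 27 at least a pair of circles shared a first or a last base. OGA, listed as MGEA5, the enzyme that removes O-GlcNAc from proteins, gave 5, each with a largest exon of 614 nt and all in B1 alone. They ran over exons 4 to 12 (1826 nt, 5 reads), 2 to 9 (1610 nt, 4 reads), 2 to 12 (1976 nt, 4 reads), 5 to 10 (1504 nt, 2 reads) and 5 to 12 (1695 nt, 1 read). KLHL24, an adaptor of the CUL3 ubiquitin ligase, gave 3 that all start with exon 2 and end with exon 3 (1044 nt), 5 (1348 nt) or 7 (1726 nt), with 1, 2 and 10 reads in B1. Their longest form thus had the most reads. MGA gave a neighbouring circle of exons 3 to 5 (hsa_circ_0000592, 1124 nt, 9 reads in B1) beside that of exon 2. BARD1 gave circles that end with exon 6 and start with exon 4 (10 reads, B1) or exon 2 (4 reads, B2). For 117 of the 284 (41.2%) the listed host also had a shorter exonic circBase circle with a read.

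Host genes were grouped by lists of gene names, which were drawn up with results of these data known. The lists are partial, and a count below covers the genes listed and not every gene of that kind, so KANSL1, EZH1 and LMTK2 above stand in none of them. Of 40 hosts of circles found in many tissues, 6 gave 9 long circles, with 170 reads in B1 and 45 in B2, and 2 of the 6 tested were called at unadjusted p, HIPK3 and SLC8A1, where 3.53% of all tested circRNAs were. Every listed member that was tested passed the filter through group B alone, so these counts are a description. Apart from those already named they include BACH1 and FOXO3, transcription factors of the oxidative stress response, with 6 and 3 reads for the larger BACH1 circle and 5 and 0 for FOXO3 exon 2. The listed protein kinases gave 14 circles (146 and 44 reads, 134 of them from HIPK3). Among them, CDK13, which phosphorylates RNA polymerase II, had 8 and 0 reads and PTK2, the focal adhesion kinase, had 5 and 2. Of the 6 kinase circles tested only HIPK3 was called. The listed chromatin regulators gave 11 circles with 30 and 10 reads, among them TET2, the H3K36 methyltransferase NSD1 (exon 5, 2560 nt, 8 and 0 reads), SMARCC1 of the BAF complex (7 and 0) and JMJD1C (0 and 3). Of 3 tested 0 were called, at unadjusted p as well (edgeR).

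The listed double-strand break repair genes gave 4 long circles, those of BARD1, ATM (0 and 4 reads) and ATR (2 and 0), of which ATM and ATR are the kinases that start the response to broken DNA and stalled replication. The 1 circle tested, of BARD1, was not called at unadjusted p, where 3.53% of all tested circRNAs were (edgeR). With 1 or 2 circles tested per list in this paragraph, a lack of calls tells nothing about the listed genes. The listed ubiquitin ligases and deubiquitinases gave 9, all in B1, with 35 reads, among them the deubiquitinases USP34 (7 reads) and USP9X (4 reads), and 0 of 2 tested were called at unadjusted p (edgeR). Zinc finger genes named ZNF gave 6 circles with 16 and 5 reads, of which ZNF236 (5 and 1) and ZNF800 (1 and 4) were read in both libraries, and ZNF418 and ZNF638 had 3 reads each in B1. Again 0 of 2 tested were called at unadjusted p (edgeR). In each of these lists all reads of long circles stood in B1 and B2, and a list's share of the long circles is given beside its share of the shorter ones without a test, as 3.87% and 3.82% for chromatin regulators, 4.93% and 3.92% for kinases, 1.41% and 0.825% for double-strand break repair, 3.17% and 2.58% for ubiquitin ligases and deubiquitinases, 2.11% and 1.70% for ZNF genes, and 3.17% and 3.76% for hosts of widely found circles.

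Hosts that mark cell types gave almost no exonic circBase circle of either length, with 1 long circle over the 4 lists and at most 1 shorter circle in each. Of 25 neuron markers, 11 had a circRNA of any class, with 21 and 25 reads in group A and 49 and 4 in group B, and the 37 reads of RMST are the whole long-circle part of this list. Blood and plasma markers (8 of 36 with a circRNA, 4 and 2 reads in group A, 44 and 11 in group B), stroma markers (4 of 23, 6 and 3, then 0 and 8 reads) and the epithelial and ductal markers of the labelled cells (5 of 25, 21 and 2, then 2 and 3 reads) gave 0 long circles. The part of other cell types in the long-circle reads was not tested. Of the 271 circles with exon structure, 5 came from long noncoding RNAs, and RMST was the only one of them among the 20 with the most reads. The 13 circles without a matched transcript are not in this count.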

How the data were processed

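Base calling by the authors used CASAVA 1.8, adapter trimming cutadapt 1.9.3, alignment STAR 2.5.1b on hg19, and detection of back-spliced reads DCC. The deposited counts are these reads per circRNA in each library, not normalized. The deposited table also gives other columns, among them the predicted length in nt. Its log2 values were not used, nor were 4 columns of per-library values (A3 and B3, counts and log2) that match no sample title, and 1 line is empty.

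circRNAs with at least 5 reads over 4 libraries were tested in edgeR 4.0.16 (R 4.3.3) by the quasi-likelihood F test with TMM factors of 2.3, 2.12, 0.325 and 0.631 in A1, A2, B1 and B2 (common dispersion 4.18) and Benjamini-Hochberg adjustment. DESeq2 1.42.0, other scalings, filters and length limits, and leaving out each library were alternatives. The script was tested on simulated counts with equal library sizes and a lower spread than these data. That test does not cover counts like these. Shares were compared with an exact permutation test, and intervals are Wilson intervals at 95%. Exons were matched to GENCODE on GRCh37 with pysam 0.24.0, and flanks were compared with blastn 2.17.0. Mapped reads, used in 2 alternatives, are the totals given by the study, and the total for B2 may belong to another library.

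Circles named are the 20 with the most reads, those with a control read, the 8 longest, the 8 longest of 1 exon, the 5 with the most exons, hosts with 3 or more, up to 4 per gene list, those called, and the 3 on either side of 1000 nt. Some circles that this rule names are not reported here. BACH1, FOXO3, PCNX1 and hsa_circ_0000592 were added after their values were seen. The members, lists and rules were chosen with earlier results of these data known.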

Additional observations from a re-analysis of the deposited data

How the results depend on the processing

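At unadjusted p under 0.05 and a fold over 2, 7 long circles were higher in group B in the reported fit. The share called over all circRNAs was taken for that fit only. The counts of the other fits thus cannot show an excess of long circles over other circRNAs. The number was 3 with RLE size factors, 2 without scaling factors and 13 with at least 10 reads. It was 15 by edgeR's likelihood ratio test, 1 in DESeq2, 5 for mapped reads as library sizes and 5 without a filter. Leaving out each replicate gave 1 to 27. At adjusted p under 0.05 the 1 call became 0 with RLE size factors, by the likelihood ratio test and in DESeq2. It became 11 with at least 10 reads, a fit over fewer circRNAs in which the unadjusted p-values moved as well. That of RMST fell from 0.00472 to 2.8e-04 and that of HIPK3 rose from 3.5e-08 to 0.00623 (edgeR). With a replicate block the counts were 7 and 1, but the 1 was SLC8A1 (adjusted p = 0.0495, edgeR), while HIPK3 had an adjusted p of 0.695. Deviations of A1 and B1 from their group means had a correlation of 0.022 over 1957 circRNAs. A group without reads, as group A for 102 of the 103 long circles tested, tells nothing about pairing. The correlation thus cannot settle whether the replicate numbers pair the libraries. The difference in read share stayed between 2.29 percentage points (over 1500 nt) and 9.45 (over 800 nt) among its length limits, always at p = 0.333 (exact permutation test), and was 4.77 without B1. Long circles were 14.5% of all exonic circRNAs, circBase or not. Single exons were 22.3% of circles over 1500 nt, 29.0% of the reads of the circles with exon structure, and 13.7% to 20.8% when each replicate was left out, the highest without B1. With at least 2 reads in each, 7.72% of long circles were in both irradiated libraries, a share that leaving out B1 or B2 cannot give. The cause of these changes was not tested. Depth limits single circles, since 181 of 284 had 1 to 4 reads.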

Other observations

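Chromosome 2 carried the most long circles (35), followed by chromosomes 1 (26), 10 (25) and 6 (23), against 163, 190, 95 and 99 shorter exonic circBase circles. Chromosome 22 carried 1 long circle, that of TPST2, beside 35 shorter ones.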
